A study of Mus musculus with 6 samples.

Results

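Genes that carry mercaptopurine into a cell, activate it and break it down were followed in mouse granulocyte-monocyte progenitors kept 3 days with a drug combination that contained it. The 9 genes Hprt, Aprt, Xdh, Tpmt, Itpa, Nt5c2, Slc28a2, Slc29a1 and Slc29a2 were taken by symbol from a table of 23337 genes, and all 9 were among the 11283 genes with enough counts to test. The cells were C57BL6 bone marrow progenitors with ER-HOXA9, a fusion of the estrogen receptor and the homeobox factor HOXA9 that keeps such cells immature while estrogen is present, and all cultures had stem cell factor and 0.5 µM beta-estradiol. The treated group, called drugs here, received GSK-LSD1, which blocks the histone demethylase LSD1, at 200 nM, mercaptopurine at 5 µM, and cerulenin, which blocks fatty acid synthase, at 5 µM for 3 days. The vehicle group received the solvent DMSO for 3 days, and the untreated group was taken at day 0. Each group had 2 biological replicates of polyadenylated RNA. Since the 3 compounds were given together, the part of each in a difference cannot be told apart, and in bulk RNA more cells of a type and more RNA per cell cannot be told apart either.

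Mercaptopurine is a sulfur analogue of hypoxanthine and is inactive until it is made into a nucleotide. HPRT joins it to ribose phosphate, IMP dehydrogenase and GMP synthetase turn the product into thioguanine nucleotides that enter DNA and RNA, and mismatch repair senses them in DNA. Against this run xanthine dehydrogenase, which oxidises the free base, TPMT, which methylates it, and NT5C2, which removes the phosphate. Thiopurines are a mainstay of leukemia therapy, and activating NT5C2 mutations are known from relapsed human acute lymphoblastic leukemia.

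Total counts per library ranged from 11305666 to 16948697, of which Rn45s, the ribosomal RNA precursor, took 14.6% to 24.6%. Levels are CPM, counts scaled to a common library size after allowing for library composition, and changes are log2 ratios ± SE with 95% intervals; "called" means an adjusted p under 0.05 in the edgeR quasi-likelihood test over all tested genes. The 8 progenitor markers summed to 10458.5 and 11010 CPM with drugs, 8431 and 8656 CPM with vehicle and 7518 and 7834 CPM untreated. The largest part of each sum was Mpo. It had 6513 and 6950 CPM with drugs, 4645 and 4644 CPM with vehicle, and 3493 and 4025 CPM untreated. With drugs against vehicle 3 of the 8 rose (Kit, Mpo and Fcgr3), 2 fell (Ctsg and Cebpa) and 3 were not called (Cd34, Elane and Prtn3). Of all genes tested 18.1% were called higher and 13.8% lower in this comparison. Kit, the stem cell factor receptor, averaged 1244 ± 15.4 CPM with drugs, 987.7 ± 42.5 CPM with vehicle and 918.1 ± 59.8 CPM untreated (SD, n = 2). Cebpa, a factor of the granulocyte lineage, averaged 136.9 ± 0.525 CPM with drugs, 177.2 ± 3.54 CPM with vehicle and 160.2 ± 2.19 CPM untreated. Elane, neutrophil elastase, was at 37.1 and 35.2 CPM with drugs, 26.9 and 39.7 CPM with vehicle, and 10.1 and 10.5 CPM untreated. Summed levels of markers of other myeloid cells differed between drugs and vehicle, though not every marker went the same way. The summed level of 11 neutrophil markers was 3549 and 3871 CPM with drugs, 21.0 and 28.7 CPM with vehicle and 17.2 and 16.4 CPM untreated, nearly all of it Mmp8 with drugs, with Camp and Retnlg at 0 counts in all 6 libraries and Ltf and Ngp at 2 counts or fewer. That of 12 monocyte and macrophage markers was 392 and 421 CPM with drugs and 39.0 and 38.0 CPM with vehicle. Untreated it was 48.2 and 42.7 CPM. C1qa and C1qc were at 0. Of the 8 tested, 7 were called higher with drugs than with vehicle and 1, Cx3cr1, lower. Ms4a6c alone had 207 and 225 CPM with drugs. The summed level of 5 mast cell and basophil markers was 1211 and 1124 CPM with drugs and 495 and 477 CPM with vehicle. Untreated it was 1088 and 901 CPM, nearer to drugs than to vehicle. Nearly all of it was Cpa3, and Tpsb2 was at 0. Of the 2 tested, Cpa3 was called higher with drugs than with vehicle and Mcpt8 lower. The 5 erythroid markers summed to at most 1.79 CPM and the 5 lymphoid ones to at most 3.93 CPM in any library. The part of these shifts in the results below was not tested.

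Drugs against vehicle asks what the combination did relative to solvent on the same day. The gene for mercaptopurine oxidation, Xdh, rose to 77.2 ± 1.08 CPM, against 6.30 ± 0.422 CPM with vehicle (SD, n = 2). The purine nucleoside carrier Slc28a2 fell to 13.2 ± 0.240 CPM, against 48.5 ± 0.315 CPM with vehicle. The activating enzyme Hprt was not called, at 91.0 ± 3.98 CPM with drugs and 97.7 ± 6.01 CPM with vehicle. Of the 9 genes 4 were called, 2 higher (Xdh and Slc29a1) and 2 lower (Slc28a2 and Nt5c2). Of all genes tested 31.9% were called in this comparison, 18.1% higher and 13.8% lower, and with 9 genes the count alone says little. The median log2 change was -0.10 over the 9 genes and 0.00075 over all tested genes.

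**Figure D1:**
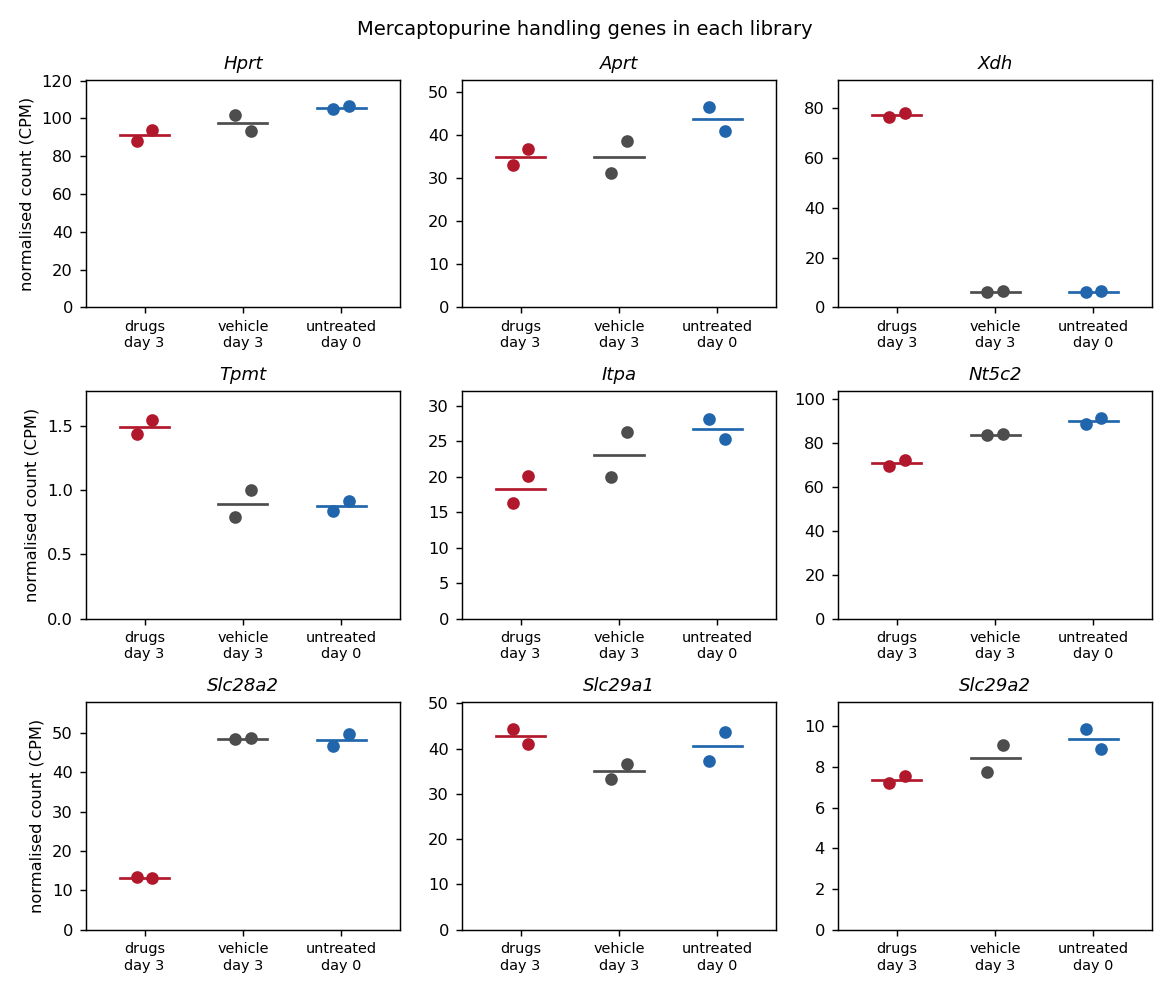
Normalised count (CPM, linear axis from 0) of each of the 9 genes in each library; points are the 2 replicates of a group and the bar is their mean. Xdh stood at 76.5 and 78.0 CPM with drugs, far above all other libraries, and Slc28a2 at 13.4 and 13.0 CPM, far below them.

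Hprt, the salvage enzyme that activates mercaptopurine (chromosome X, 52988078 to 53021660, plus strand; all positions are on mm10, as deposited), was the most abundant of the 9 genes per length. It had 88.2 and 93.9 CPM with drugs, 101.9 and 93.4 CPM with vehicle, and 104.8 and 106.7 CPM untreated. The drug and vehicle libraries overlapped. Its log2 change was -0.10 ± 0.0719 (95% interval -0.26 to 0.05, adjusted p = 0.311), so a fall of more than 0.26 on the log2 scale lies outside the interval.

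Aprt makes AMP from adenine with the same ribose phosphate donor as Hprt but does not use hypoxanthine (chromosome 8, 122574637 to 122576907, minus strand). It had 33.1 and 36.7 CPM with drugs, 31.1 and 38.6 CPM with vehicle, and 46.5 and 41.0 CPM untreated. The drug libraries lay between the vehicle libraries, and both groups lay below the untreated one. Its log2 change of drugs over vehicle was 0.0056 ± 0.112 (95% interval -0.24 to 0.25, adjusted p = 0.975), a value whose sign turned under several settings given in the closing section.

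Xdh, xanthine dehydrogenase, oxidises hypoxanthine and xanthine to uric acid and mercaptopurine to thiouric acid (chromosome 17, 73883908 to 73950182, minus strand). It had 955 and 1209 counts with drugs, 76 and 79 counts with vehicle, and 101 and 79 counts untreated. In CPM this was 76.5 and 78.0 with drugs, 6.005 and 6.60 with vehicle, and 6.04 and 6.56 untreated. Drug libraries were high, and the vehicle and untreated libraries covered the same range. The log2 change was 3.61 ± 0.105 (95% interval 3.39 to 3.84, adjusted p = 6.52e-11). Of the 11283 genes tested, 64 had a higher log2 change. The call held under all 14 alternatives run for it. In GENCODE 9.6% of the 50-base windows of its transcripts, those with retained introns included, also occur in other genes.

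Tpmt, which methylates and so inactivates mercaptopurine (chromosome 13, 47023543 to 47043217, minus strand), was the least abundant of the 9. It had 18 and 24 counts with drugs, 10 and 12 counts with vehicle, and 14 and 11 counts untreated. Both drug libraries, at 1.44 and 1.55 CPM, were above the vehicle libraries at 0.790 and 1.003 CPM and the untreated ones at 0.837 and 0.914 CPM. With so few counts the log2 change of 0.74 ± 0.344 was not called (95% interval -0.0048 to 1.49, adjusted p = 0.122) at this depth. In the GENCODE transcripts 15.6% of its 50-base windows also occur in Gm18807, which overlaps it on the other strand, so part of its reads could have another source.

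Itpa hydrolyses inosine triphosphate and its thiopurine form (chromosome 2, 130667841 to 130681614, plus strand). It had 16.3 and 20.1 CPM with drugs, 19.9 and 26.2 CPM with vehicle, and 28.0 and 25.3 CPM untreated. The drug and vehicle libraries overlapped, and the vehicle replicates lay further apart than those of the other groups. The log2 change of -0.33 ± 0.143 was not called (95% interval -0.64 to -0.022, adjusted p = 0.0972), and 19.7% of its 50-base windows are shared with Itpa-ps1. Without vehicle replicate 1 the change was -0.52 and was called (adjusted p = 0.019), and without vehicle replicate 2 it was -0.14 (adjusted p = 0.549). With no filter on low counts it was -0.34 and was called (adjusted p = 0.0154). There 5 of the 9 genes and 4056 of all genes were called, against 3601 of all genes with the filter. Without the filter Xdh had an adjusted p of 3.68e-187 at a log2 change of 3.60, against 6.52e-11 with it. Calls made without the filter, here and in the other comparisons, are therefore not on a like footing.

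Nt5c2, a cytosolic nucleotidase that returns inosine, guanosine and thiopurine monophosphates to nucleosides (chromosome 19, 46886831 to 47015189, minus strand), fell slightly. It had 69.5 and 72.4 CPM with drugs, 83.8 and 84.1 CPM with vehicle, and 88.6 and 91.6 CPM untreated. The 3 groups did not overlap, with drugs lowest. The log2 change was -0.24 ± 0.0676 (95% interval -0.39 to -0.094, adjusted p = 0.0163). That call was lost with DESeq2 (adjusted p = 0.0708) and without drugs replicate 1 (0.183), drugs replicate 2 (0.0801) or vehicle replicate 1 (0.0541). An exon of Ina overlaps it on the other strand, and Ina had 0 counts in all 6 libraries.

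**Figure D2:**
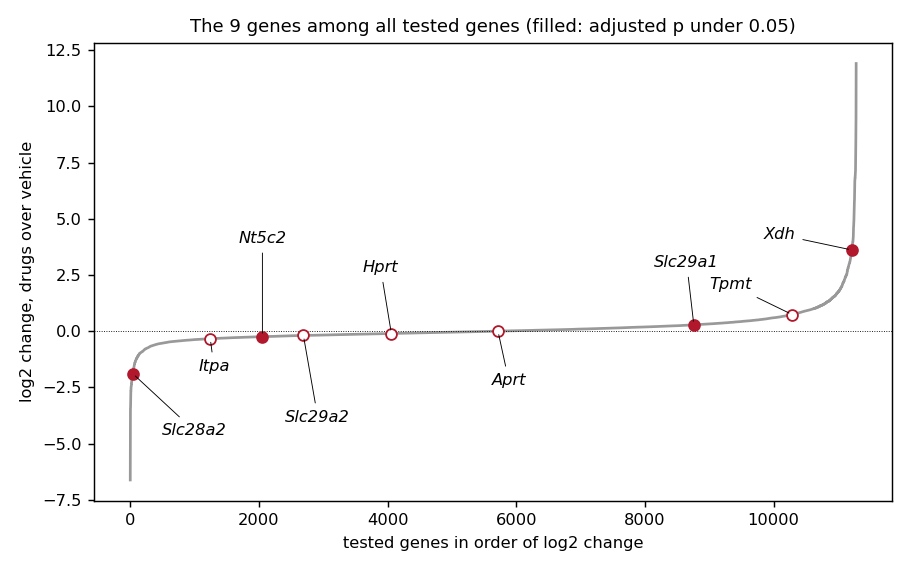
All 11283 tested genes in order of their log2 change of drugs over vehicle (grey line), with the 9 genes marked; filled points have an adjusted p under 0.05. Xdh lies near the top end with 64 genes above it, Slc28a2 near the bottom end with 37 below it, and the other 7 lie between -0.33 and 0.74.

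The carriers differed from one another. Slc28a2 encodes CNT2, a sodium-driven carrier that concentrates purine nucleosides (chromosome 2, 122426477 to 122461130, plus strand). It had 167 and 202 counts with drugs, 611 and 583 counts with vehicle, and 778 and 599 counts untreated. In CPM this was 13.4 and 13.0 with drugs, 48.3 and 48.7 with vehicle, and 46.5 and 49.8 untreated. Drug libraries were low, and vehicle and untreated libraries overlapped. The log2 change was -1.88 ± 0.0916 (95% interval -2.08 to -1.68, adjusted p = 9.74e-09), and 37 tested genes had a lower log2 change. The call held under all 15 alternatives run for it.

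A close copy of Slc28a2, listed in the table as Gm14085 and in RefSeq as Slc28a2b, lies on the same strand with 23810 bases between them (chromosome 2, 122484941 to 122528040). The longest coding sequences of both, 1980 bases each in GENCODE, are 94.5% identical, and 35.4% of the 50-base windows of Slc28a2 transcripts also occur in Gm14085 transcripts. Reads from such stretches cannot be assigned to one of them. Bases 157 to 216 of the coding sequences are the first 60-base window without a difference, and bases 408 to 467 are the window with most differences, shown to make plain where counts can and cannot separate the copies. Lower case marks bases that are the same in both genes and capitals the 29 that differ.
Slc28a2, bases 157 to 216: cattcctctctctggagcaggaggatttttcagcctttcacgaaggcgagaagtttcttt
Gm14085, bases 157 to 216: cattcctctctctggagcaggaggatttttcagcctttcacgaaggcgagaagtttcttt
Slc28a2, bases 408 to 467: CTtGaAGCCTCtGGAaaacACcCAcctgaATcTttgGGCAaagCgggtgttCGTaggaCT
Gm14085, bases 408 to 467: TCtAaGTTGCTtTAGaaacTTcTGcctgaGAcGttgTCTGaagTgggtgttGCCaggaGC

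Gm14085 fell with Slc28a2. It had 36 and 60 counts with drugs, 162 and 169 counts with vehicle, and 189 and 158 counts untreated. Its log2 change was -1.97 ± 0.176 (adjusted p = 2.56e-06). The ratio of Gm14085 to Slc28a2 counts was 0.216 and 0.297 with drugs, 0.265 and 0.290 with vehicle, and 0.243 and 0.264 untreated, and these ranges overlap. With the counts of both genes summed, a setting chosen after their values were seen, the log2 change was -1.90 (adjusted p = 6.08e-09). The labels do not say how reads with several matches were counted, so whether both copies are transcribed cannot be told apart from reads shared between them.

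The 250 bases before each start, from RefSeq on GRCm38.p6, are shown so that the starts of both copies can be read side by side. Capitals mark GGAAGT on either strand (ACTTCC when on the other), a core letter string of ETS family sites, the family of the myeloid factor PU.1. It occurs 68 and 25 bases before the start of Slc28a2 and 173 bases before that of Slc28a2b. Among the other members it occurs 6 bases before the start of Itpa. Nt5c2 has 7 windows, and some hold it, at 183, 139 or 140 bases before the start. The windows with the match at 183 and at 140 overlap, and the match is the same one. The windows of Hprt, Tpmt, Aprt, Slc29a1 and Slc29a2 do not hold it. Of 32536 RefSeq windows of this length 19.8% hold at least 1 match and 2.73% hold 2 or more, so a match is common and describes letters only. Windows were found for 8 of the 9 genes, without Xdh.
Slc28a2, chr2:122426185-122426434, plus strand: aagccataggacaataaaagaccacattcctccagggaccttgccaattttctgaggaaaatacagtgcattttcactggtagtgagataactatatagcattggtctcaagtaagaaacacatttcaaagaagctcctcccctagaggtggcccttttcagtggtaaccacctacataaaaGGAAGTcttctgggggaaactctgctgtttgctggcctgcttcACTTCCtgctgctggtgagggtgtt
Slc28a2b, chr2:122484691-122484940, plus strand: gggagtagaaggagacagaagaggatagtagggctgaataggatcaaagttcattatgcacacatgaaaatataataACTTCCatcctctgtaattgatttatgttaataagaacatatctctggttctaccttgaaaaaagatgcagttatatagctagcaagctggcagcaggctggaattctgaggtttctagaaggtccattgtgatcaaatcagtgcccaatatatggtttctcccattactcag

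Slc29a1 encodes ENT1, the main equilibrative nucleoside carrier of most cells (chromosome 17, 45585200 to 45599603, minus strand), and was called slightly higher. It had 44.4 and 41.1 CPM with drugs, 33.3 and 36.7 CPM with vehicle, and 37.3 and 43.7 CPM untreated. Drug libraries were above vehicle libraries and overlapped the untreated ones. The log2 change was 0.29 ± 0.0977 (95% interval 0.074 to 0.50, adjusted p = 0.0404). This call was lost with scaling by library totals (adjusted p = 0.0825), by totals without Rn45s (0.0611), with DESeq2 (0.134), with a block for replicate number (0.0663), and without drugs replicate 1 (0.263), drugs replicate 2 (0.0923) or vehicle replicate 1 (0.211).

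Slc29a2 encodes ENT2, a second equilibrative carrier that also takes nucleobases (chromosome 19, 5024006 to 5031972, plus strand). It had 7.21 and 7.55 CPM with drugs, 7.74 and 9.11 CPM with vehicle, and 9.87 and 8.89 CPM untreated. The drug libraries were the lowest, but the log2 change of -0.19 ± 0.154 was not called (95% interval -0.52 to 0.15, adjusted p = 0.384).

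**Figure D3:**
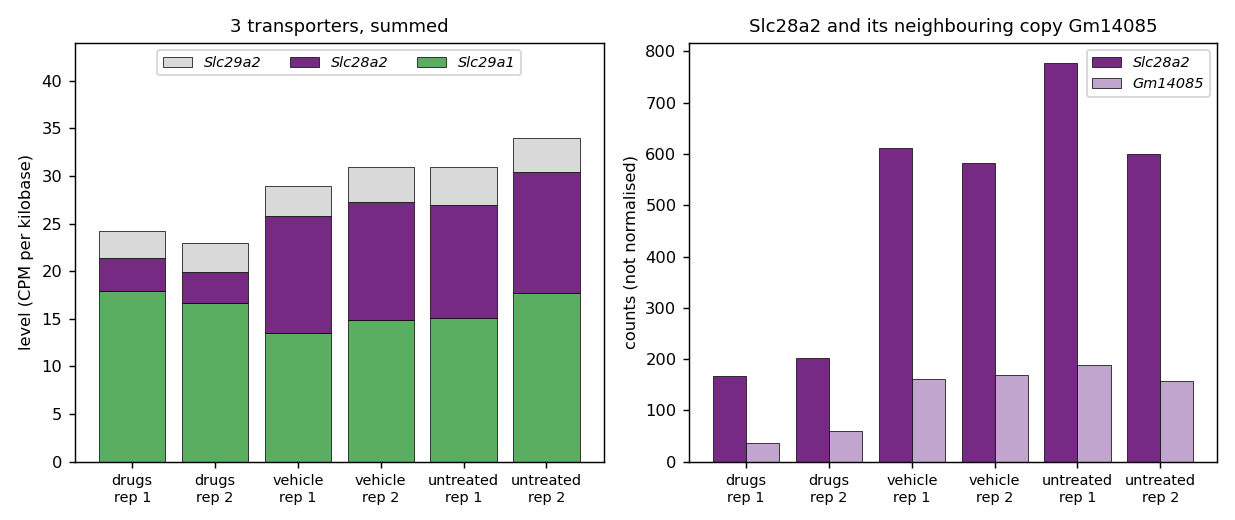
Left, level per gene length (CPM per kilobase) of Slc29a2, Slc28a2 and Slc29a1 stacked in each library; right, counts of Slc28a2 and of its copy Gm14085 in each library. Slc28a2 made up 14.1% and 14.5% of the stacked level with drugs and between 37.5% and 42.7% in the other libraries, and both copies were lowest with drugs.

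Levels of different genes were compared per length, as CPM per kilobase of gene model. With drugs the order ran Hprt (67.5 ± 2.95, SD, n = 2), Aprt (40.3 ± 2.97), Slc29a1 (17.3 ± 0.933), Xdh (16.8 ± 0.236), Nt5c2 (15.9 ± 0.467), Itpa (15.7 ± 2.36), Slc28a2 (3.38 ± 0.0615), Slc29a2 (2.98 ± 0.0977) and Tpmt (0.551 ± 0.0279). The libraries of Slc29a1 and Xdh overlapped in this order, as did those of Nt5c2 and Itpa. Itpa, at 14.02 and 17.4, also spanned both values of Xdh, at 16.7 and 17.0, and overlapped Slc29a1, at 17.9 and 16.6, so places 3 to 6 were not all separated. With vehicle it ran Hprt (72.4 ± 4.45), Aprt (40.3 ± 6.11), Itpa (19.9 ± 3.86), Nt5c2 (18.8 ± 0.0506), Slc29a1 (14.2 ± 0.956), Slc28a2 (12.4 ± 0.0807), Slc29a2 (3.41 ± 0.391), Xdh (1.37 ± 0.0921) and Tpmt (0.330 ± 0.0554), with Itpa and Nt5c2 the only neighbours to overlap. In untreated cells the order was the same as with vehicle and no neighbours overlapped. Xdh was among the genes in places 3 to 6 with drugs and in place 8 with vehicle. Its level was above that of 64.2% of all tested genes with drugs and 13.1% with vehicle, while Slc28a2 stood above 21.4% with drugs and 54.6% with vehicle.

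The level of the activating enzyme was also set against those of the enzymes that break mercaptopurine down, per length. The Hprt level was 3.92 and 4.09 times the Xdh level with drugs, 57.7 and 48.1 times with vehicle, and 59.0 and 55.3 times untreated. The Hprt level was 123.2 and 122.0 times the Tpmt level with drugs, 259.6 and 187.5 times with vehicle, and 251.9 and 234.9 times untreated. In both ratios the drug libraries were lowest and the vehicle and untreated libraries overlapped. These ratios describe RNA and were not tested, and Tpmt itself was not called.

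Vehicle against untreated cells asks what 3 days of culture did without the drugs. None of the 9 genes was called with edgeR, DESeq2 or limma-voom, where 7.74% of all tested genes were called with edgeR, 3.75% higher and 3.99% lower. At an unadjusted p under 0.05 there was 1, Aprt, at a log2 change of -0.33 ± 0.11 (95% interval -0.57 to -0.096, adjusted p = 0.0834). Aprt was called in this comparison without vehicle replicate 2 (adjusted p = 0.029), without untreated replicate 2 (0.0243), and with no filter on low counts (0.0135). Xdh had a log2 change of 0.0065 ± 0.142 (95% interval -0.30 to 0.31) and Slc28a2 of 0.013 ± 0.0788 (95% interval -0.16 to 0.18), so a change of either as large as that with the drugs lies outside the interval. Of all called genes 48.5% were higher with vehicle, against 89% with scaling by library totals, which moved the median of all genes by 0.12 (log2). With totals without Rn45s 50.1% were higher, and the median moved by -0.0043.

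Drugs against untreated cells joins both steps and shares its drug libraries with the first comparison and its untreated libraries with the second. Of the 9 genes 6 were called, 1 higher (Xdh) and 5 lower, where 43.9% of all tested genes were called, 22.7% higher and 21.2% lower. Xdh had a log2 change of 3.62 ± 0.102 and Slc28a2 of -1.86 ± 0.0908 (adjusted p = 4.65e-11 and 7.05e-09). Nt5c2 changed by -0.34 ± 0.0668 (adjusted p = 0.00127) and Itpa by -0.55 ± 0.139 (adjusted p = 0.0066). Both salvage enzymes were called lower as well, Hprt at -0.21 ± 0.0711 (adjusted p = 0.0273) and Aprt at -0.33 ± 0.108 (adjusted p = 0.0265). Tpmt (0.78 ± 0.333, adjusted p = 0.0748), Slc29a2 (-0.35 ± 0.148, adjusted p = 0.0706) and Slc29a1 (0.081 ± 0.0951, adjusted p = 0.511) were not called.

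The calls of Hprt, Aprt and Itpa against untreated cells were lost under several settings. In the settings without a call, the log2 change lay between -0.27 and -0.12 for Hprt and between -0.41 and -0.23 for Aprt. For Itpa it lay between -0.46 and -0.41. Leaving out a library also leaves fewer libraries for the estimate of spread. The Hprt call was lost without drugs replicate 1 (adjusted p = 0.247), drugs replicate 2 (0.0704) or untreated replicate 2 (0.0514), with library totals (0.157), with DESeq2 (0.0992) and with the block (0.0575). That of Aprt was lost without drugs replicate 1 (0.203), drugs replicate 2 (0.05) or untreated replicate 1 (0.162), with library totals (0.192) and with DESeq2 (0.0689). That of Itpa was lost without drugs replicate 1 (0.0877) and with library totals (0.0551). The calls of Xdh, Slc28a2 and Nt5c2 held under every alternative in this comparison. With library totals 70.4% of all called genes were higher with drugs than untreated, against 51.7% with the scaling used here. With totals without Rn45s 46.9% were higher. The calls of Hprt, Aprt and Itpa held there (adjusted p = 0.0102, 0.0273 and 0.00865).

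**Figure D4:**
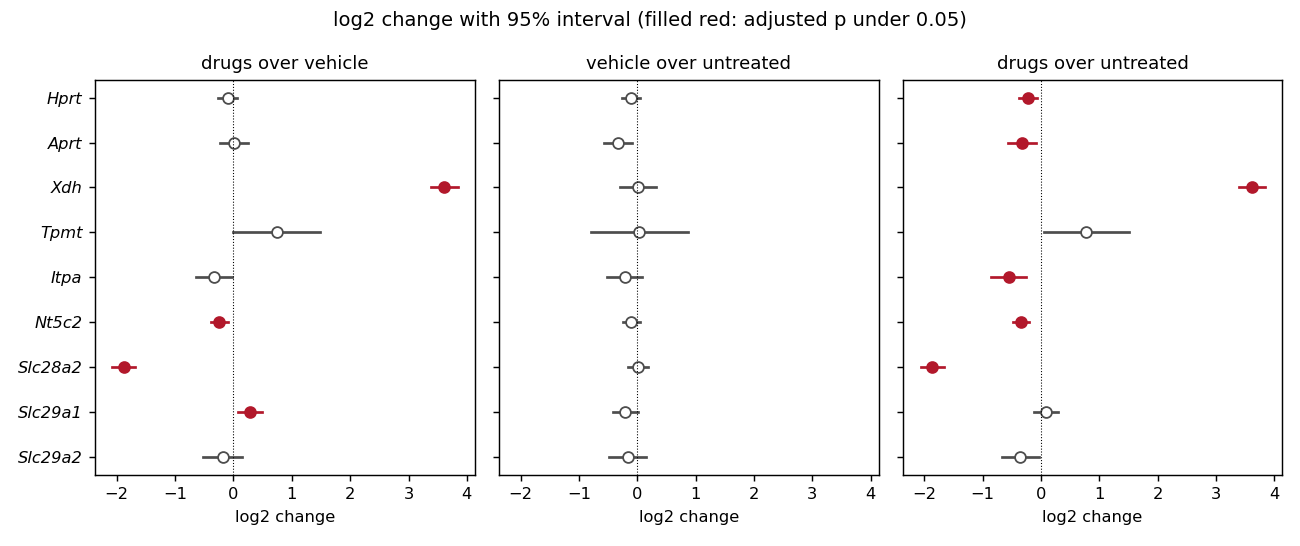
log2 change (point) with its 95% interval (line) for each of the 9 genes in the 3 comparisons, on a shared axis; filled red points have an adjusted p under 0.05. In the middle panel, vehicle over untreated, no gene was called, while Xdh (3.61 and 3.62) and Slc28a2 (-1.88 and -1.86) stand far from 0 in both panels with drugs.

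Around these 9 genes, 91 further genes were grouped into 9 lists by their step in thiopurine metabolism. Of the 75 with enough counts to test, 9 were called higher and 19 lower with drugs than with vehicle. Together this is 37.3%, against 31.9% of all tested genes. By direction, 18.1% of all tested genes were called higher and 13.8% lower. The counts of each list below are small and are to be read against these shares.

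**Figure D5:**
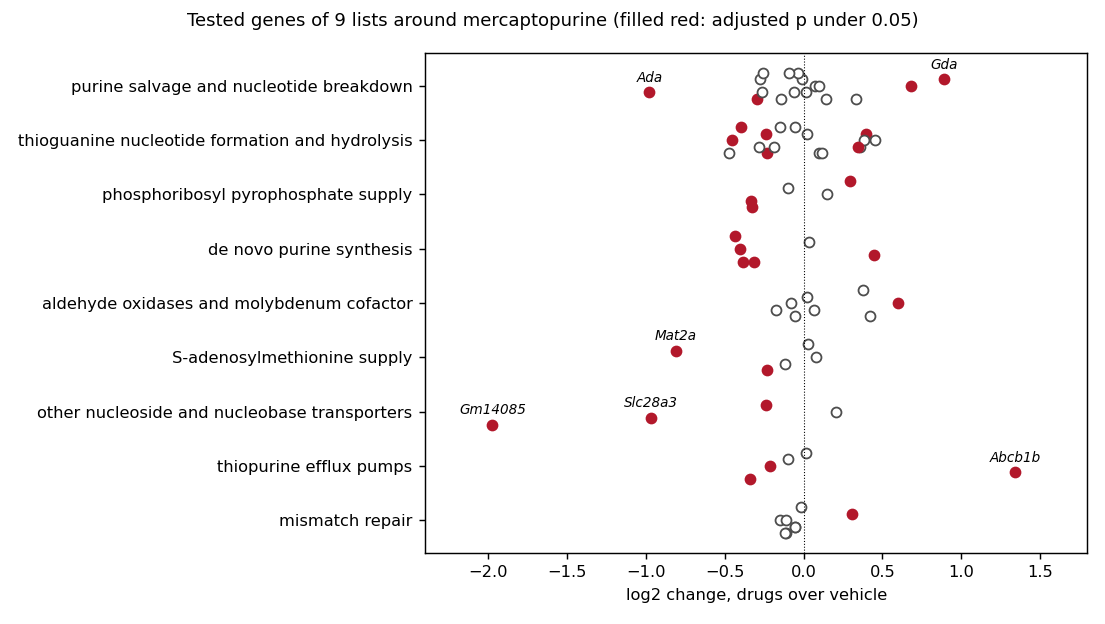
log2 change of drugs over vehicle for each tested gene of 9 lists (rows; vertical offsets within a row only separate points); filled red points have an adjusted p under 0.05. Abcb1b (1.34) and Gda (0.89) lie furthest right and Gm14085 (-1.97), Ada (-0.98) and Slc28a3 (-0.97) furthest left.

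Of 17 tested genes of purine salvage and nucleotide breakdown, 2 rose and 2 fell (median log2 change -0.033). Gda, guanine deaminase, which makes xanthine, a substrate of xanthine dehydrogenase, rose to 1186 ± 21.6 CPM with drugs, against 640.1 ± 18.4 CPM with vehicle (log2 change 0.89 ± 0.0833, adjusted p = 4.02e-06). It was also higher with vehicle than in untreated cells (0.54 ± 0.0834, adjusted p = 0.00193). Ada, adenosine deaminase, fell to 4.89 ± 0.0133 CPM, against 9.67 ± 2.16 CPM with vehicle (-0.98 ± 0.181, adjusted p = 0.00127). The other calls were Dguok, the mitochondrial deoxyguanosine kinase (0.68), and Pnp, purine nucleoside phosphorylase (-0.30). Uox, the urate oxidase that follows xanthine dehydrogenase in mice, had 0 counts in all 6 libraries.

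Of 17 genes that form or hydrolyse thioguanine nucleotides, 2 rose and 4 fell (median -0.056). The paralogs of IMP dehydrogenase, the enzyme after HPRT, went in opposite directions. Impdh1 fell to 192.9 ± 0.448 CPM with drugs, against 264.1 ± 18.2 CPM with vehicle (log2 change -0.45 ± 0.0737, adjusted p = 0.000476). Impdh2 rose to 287.1 ± 11.3 CPM, against 218.3 ± 2.34 CPM with vehicle (0.40 ± 0.0696, adjusted p = 0.000876). Nme1, a nucleoside diphosphate kinase, changed by -0.40 ± 0.119 (adjusted p = 0.0221), Gmps, GMP synthetase, by -0.23, and Rrm1, the large subunit of ribonucleotide reductase, by -0.24. Samhd1, a hydrolase of deoxynucleotides, changed by 0.34.

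Of 5 genes listed for the supply of phosphoribosyl pyrophosphate, the donor used by HPRT, 1 rose and 2 fell. The list holds synthetases of the donor and proteins associated with them. Prps1, a synthetase of the donor, changed by -0.33 ± 0.0688 (adjusted p = 0.003), and its paralog Prps1l3, with which reads may be shared, by -0.33 ± 0.07 (adjusted p = 0.00288). Of 6 genes of de novo purine synthesis, which methylated thiopurine nucleotides block at Ppat, 1 rose and 4 fell. Ppat changed by -0.31 ± 0.0679 (adjusted p = 0.00379) and Pfas by -0.44 ± 0.0724 (adjusted p = 0.000564), whereas Atic, which holds the last steps, changed by 0.45 ± 0.0764 (adjusted p = 0.000725).

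A further pair of lists holds genes around xanthine dehydrogenase and TPMT. Of 8 tested genes of the aldehyde oxidases, which can oxidise mercaptopurine, and of the molybdenum cofactor that xanthine dehydrogenase needs, 1 rose and 0 fell. This was Suox, sulfite oxidase (0.60 ± 0.179, adjusted p = 0.0225), another user of the cofactor. Mocos, which adds the sulfur that the cofactor of xanthine dehydrogenase needs, had 1.61 ± 0.549 CPM with drugs and 1.67 ± 0.353 CPM with vehicle (log2 change -0.078 ± 0.336, adjusted p = 0.885). Of 5 tested genes listed around S-adenosylmethionine, the methyl donor of TPMT, 0 rose and 2 fell. Mat2a, which makes it, fell to 504.9 ± 37.3 CPM with drugs, against 886.2 ± 86.2 CPM with vehicle (-0.81 ± 0.105, adjusted p = 6.93e-05), and Ahcy, which clears its product, changed by -0.23 ± 0.069 (adjusted p = 0.0224).

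Of 4 tested other carriers of nucleosides and nucleobases, 0 rose and 3 fell. Besides Gm14085 these were Slc28a3, the concentrative carrier CNT3, at 1.32 ± 0.0521 CPM with drugs and 2.59 ± 0.587 CPM with vehicle (log2 change -0.97 ± 0.299, adjusted p = 0.0253), and Slc43a3, a purine nucleobase carrier (-0.24 ± 0.0731, adjusted p = 0.0244). Slc28a1 and Slc29a4 had 0 counts in all 6 libraries. Of 5 tested efflux pumps 1 rose and 2 fell. Abcb1b, a multidrug pump of the P-glycoprotein type, rose to 65.0 ± 2.67 CPM with drugs, against 25.6 ± 1.57 CPM with vehicle (1.34 ± 0.0876, adjusted p = 1.36e-07), and its paralog Abcb1a, with which reads may be shared, changed by -0.34 ± 0.0901 (adjusted p = 0.0125). Abcc4, which exports thiopurine nucleotides, was not called (-0.098 ± 0.0815, adjusted p = 0.392).

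The genes whose pattern over the 6 libraries was most like that of Xdh or Slc28a2 were taken as the 5 with the smallest root mean square distance between centred log2 CPM values, among all tested genes. For Xdh these were 6330416G13Rik (distance 0.115), Ankrd6 (0.119), 6430548M08Rik (0.134), Rin2 (0.162) and Rpgrip1 (0.174). Ankrd6 and Rin2 had 0 counts in the vehicle and untreated libraries and at most 2.19 CPM with drugs, so their distance depends on the count added before taking logs, whereas 6330416G13Rik had 76.9 and 80.1 CPM with drugs, 6.72 and 6.85 CPM with vehicle, and 7.47 and 7.97 CPM untreated. For Slc28a2 they were Igll1 (0.121), Slc22a3 (0.136), Gpr12 (0.142), Gm14085 (0.148) and Slc6a12 (0.164). Slc22a3, an organic cation carrier, had 41.8 and 42.5 CPM with drugs, 123.8 and 126.4 CPM with vehicle, and 143.0 and 156.6 CPM untreated. Gm14085, the copy of Slc28a2, came 4th in this order.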

How the data were processed

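The deposited table holds raw read counts per gene, which the authors made without normalisation, and a Length column that equals the union of the listed exons in base pairs for all 23337 genes. STAR 2.7.0f, deepTools 3.0.2 and the mm10 build are named in the submitters' processing notes, and the labels call the counts featurecount. No source used here states whether counting used strand, what was done with multi-mapping reads, or which annotation was used.

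Genes were filtered with filterByExpr, TMM-scaled, and fitted in 1 model that holds all 3 groups (edgeR 4.0.16 and R 4.3.3). This leaves 3 residual degrees of freedom, and the spread of a gene is shared by the 3 groups. The replicates did not differ equally within groups. Without Rn45s, chi-square per degree of freedom between replicates was 1.87 with drugs, 5.04 with vehicle and 8.02 untreated. The quasi-likelihood F test gave p-values, adjusted by Benjamini-Hochberg over all 11283 tested genes with a threshold of 0.05. SEs were derived from the F statistic, and intervals use the moderated degrees of freedom. The script was tested on simulated data. CPM uses TMM-scaled totals, and levels per kilobase divide CPM by Length. Precision is limited by 2 replicates a group and, for Tpmt, by counts of 10 to 24. Alternatives were DESeq2 1.42.0, limma-voom (limma 3.58.1), other scalings, no filter, only the groups compared, a block for replicate number, and each library left out.

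The members, lists and tests were chosen with earlier results of these data known. All 9 members were named, and, of each list, up to 4 called genes in drugs against vehicle, 2 by smallest p and 2 by largest absolute log2 change. For Xdh and Slc28a2 the 5 genes nearest in pattern were named, and genes that overlap or copy a member or had 0 counts could be. Dguok, Pnp, Gmps, Rrm1, Samhd1, Ppat, Mocos and Abcc4 fall outside this rule and were named after their values were seen. So were the cell type markers Kit, Mpo, Fcgr3, Ctsg, Cebpa, Cd34, Elane, Prtn3, Mmp8, Ltf, Ngp, Ms4a6c, Cx3cr1, Cpa3 and Mcpt8. Older symbols were matched through RefSeq synonyms. Window sharing used GENCODE M21 transcripts (GRCm38, the assembly of mm10) with windows of 50 bases. Replicate numbers were not used to pair cultures, since the labels do not say that they mark a shared culture. Some results of the lists are not reported here.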

Additional observations from a re-analysis of the deposited data

How the results depend on the processing

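The calls of Xdh and Slc28a2 in both comparisons with drugs held under every alternative run, with log2 changes over vehicle between 3.55 and 3.67 for Xdh and between -1.91 and -1.86 for Slc28a2. That of Nt5c2 in drugs against untreated cells held as well, with log2 changes between -0.38 and -0.25. The other calls among the 9 genes were lost under at least 1 setting, and the cause was not tested. The number of calls over all genes moved with the setting too. For drugs against vehicle DESeq2 called 2443 of all genes, against 3601 with edgeR. For drugs against untreated cells library totals called 4460 of all genes, against 4958 with TMM scaling. Totals without Rn45s called 4982 in that comparison and 861 for vehicle against untreated cells. For drugs against vehicle, DESeq2 called 2 of the 9 genes, and leaving out 1 library gave 2 to 4 of the 9 and 1833 to 4191 of all genes, against 3601 with all libraries (1833 without drugs replicate 1, 2056 without drugs replicate 2). For vehicle against untreated cells, 873 genes were called, against 1958 with library totals, 1664 with no filter, 491 with DESeq2, 527 with only the groups compared, and 351 to 2011 with 1 library left out (530 without drugs replicate 1, 535 without drugs replicate 2, 351 without vehicle replicate 1, 359 without untreated replicate 1, 2011 without untreated replicate 2). Of the 9 genes this comparison called 1 with no filter and 0 to 1 with a library left out. For drugs against untreated cells, library totals called 3 of the 9, and leaving out 1 library gave 3 to 6 of the 9 and 2872 to 5142 of all genes, against 4958 with all (2872 without drugs replicate 1, 3279 without drugs replicate 2).

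Uncalled changes near 0 turned sign. Aprt, drugs over vehicle, was at -0.029 with library totals, -0.020 with totals without Rn45s, -0.0056 with no filter, -0.0023 with DESeq2, -0.0012 with only the groups compared, and between -0.14 and 0.15 with a library left out. For vehicle over untreated, Hprt was at 0.0090 and Nt5c2 at 0.021 with library totals, and with a library left out Tpmt lay between -0.12 and 0.20, Xdh between -0.060 and 0.076, and Slc28a2 between -0.037 and 0.054. Slc29a1, drugs over untreated, lay between -0.037 and 0.18 with a library left out.

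Same-numbered replicates deviated from their group means with correlations of 0.0807 (drugs and vehicle), -0.199 (vehicle and untreated) and -0.0604 (drugs and untreated), so the numbers were not taken to pair cultures. With a replicate block, 2958 genes and 3 of the 9 were called for drugs against vehicle, 483 genes for vehicle against untreated cells, and 4329 genes and 5 of the 9 for drugs against untreated cells. With the numbers crossed, a setting chosen after seeing the data, vehicle against untreated cells gave 2380 genes and 1 of the 9. Tpmt had between 10 and 24 counts in a library, the lowest of the 9 genes.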
